A study of Mus musculus with 3 samples.

Results

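The transcripts of 10 genes of the Hippo pathway were compared in 3 murine colon cancer cell lines. The genes were the coactivators *Yap1* and *Wwtr1*, the DNA-binding partners *Tead1*, *Tead2* and *Tead4*, the kinase *Lats2*, the scaffolds *Amotl2* and *Ajuba*, and the target genes *Ankrd1* and *Crim1*. They were taken by name, as every array probe whose RefSeq accession belongs to one of these symbols, and make up 10 of the 22911 genes that could be named on the array. Colon26 is a colon adenocarcinoma line from a female BALB/c mouse, and LuM1 and NM11 are sublines of it that the labels call high-metastatic and low-metastatic. No line carried a transgene or received a drug according to the labels. All were cultured for 3 days in serum-containing medium, and 0.1 µg of total RNA from each was labelled with a single dye. Each line was measured on 1 array, so no difference between lines could be set against replicates, and none was tested.

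In the Hippo pathway, the kinases MST and LATS act in a chain that phosphorylates YAP and its relative TAZ, the protein of *Wwtr1*, and keeps them out of the nucleus. When the chain is off, YAP and TAZ enter the nucleus, bind TEAD proteins on DNA and switch on genes for growth, matrix and the cytoskeleton. Some of these target genes, among them *Lats2* and *Amotl2*, encode inhibitors of the pathway itself. The main regulation acts on the proteins, which an array of transcripts does not measure. In the intestine the pathway is known for its part in regeneration and in colorectal tumors.

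The promoters of the 5 genes that reached 2-fold in any comparison are printed here, so that the core recognised by TEAD proteins can be read where it is present. Each run is the 250 bases before the annotated transcription start, from RefSeq on the mouse assembly GRCm38.p6, written 5′ to 3′ on the strand of the gene. Capitals mark GGAATG or its reverse complement CATTCC, and the run of *Tead2* has neither. *Ccn1*, a target gene outside the 10, is shown beside them because its signal differed between the lines as that of *Amotl2* did.
Ankrd1 (chr19:36119845-36120094, minus strand): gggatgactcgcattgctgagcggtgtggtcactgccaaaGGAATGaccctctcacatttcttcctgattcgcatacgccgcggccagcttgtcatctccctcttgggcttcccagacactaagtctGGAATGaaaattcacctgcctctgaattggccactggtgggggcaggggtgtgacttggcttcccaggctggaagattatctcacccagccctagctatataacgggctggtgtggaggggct
Crim1 (chr17:78199998-78200247, plus strand): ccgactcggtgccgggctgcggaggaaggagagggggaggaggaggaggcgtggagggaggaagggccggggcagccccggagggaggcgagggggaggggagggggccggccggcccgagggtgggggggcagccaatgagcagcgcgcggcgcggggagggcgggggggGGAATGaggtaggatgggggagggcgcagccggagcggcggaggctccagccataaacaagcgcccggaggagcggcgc
Amotl2 (chr9:102717554-102717803, plus strand): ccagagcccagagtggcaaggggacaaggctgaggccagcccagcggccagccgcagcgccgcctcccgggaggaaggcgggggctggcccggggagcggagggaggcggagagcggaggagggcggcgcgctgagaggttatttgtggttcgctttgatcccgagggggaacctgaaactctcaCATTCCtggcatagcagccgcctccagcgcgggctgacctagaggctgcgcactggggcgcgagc
Ajuba (chr14:54577662-54577911, minus strand): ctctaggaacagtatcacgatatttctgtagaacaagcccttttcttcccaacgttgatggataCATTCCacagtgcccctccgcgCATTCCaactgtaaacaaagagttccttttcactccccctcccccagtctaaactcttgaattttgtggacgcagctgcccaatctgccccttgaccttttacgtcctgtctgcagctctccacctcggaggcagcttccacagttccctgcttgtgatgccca
Tead2 (chr7:45215542-45215791, plus strand): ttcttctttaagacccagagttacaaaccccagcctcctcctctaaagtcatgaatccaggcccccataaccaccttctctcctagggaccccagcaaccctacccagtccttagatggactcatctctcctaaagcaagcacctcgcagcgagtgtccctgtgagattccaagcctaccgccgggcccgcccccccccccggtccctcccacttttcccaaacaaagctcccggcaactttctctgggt
Ccn1 (chr3:145649986-145650235, minus strand): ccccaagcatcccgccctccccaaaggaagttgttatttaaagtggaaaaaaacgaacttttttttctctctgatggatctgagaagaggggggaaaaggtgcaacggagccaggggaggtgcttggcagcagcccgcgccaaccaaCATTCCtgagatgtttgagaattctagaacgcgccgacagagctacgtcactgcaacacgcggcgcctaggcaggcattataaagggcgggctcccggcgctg

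*Ankrd1* held the core 210 and 123 bases before its start, and *Ajuba* held it 186 and 164 bases before. *Crim1* had a single match 79 bases, *Amotl2* 65 bases and *Ccn1* 103 bases before the start. RefSeq promoters were found for 8 of the 10 genes, as 10 entries, and not for *Tead1* and *Tead4*. Of these 8 genes, 6 held at least 1 core and 2 of them held 2 cores. The core in *Yap1* lay 141 bases before the start, and in *Wwtr1* it lay 136 or 170 bases before, depending on which annotated start was used. *Tead2* and *Lats2* held none in their windows. Among all 32851 mouse promoters of this table, 12.6% held a core and 1.02% held 2 or more. The motif of AP-1, TGANTCA read on both strands, was found in none of the 8 genes and in 6.75% of all promoters, and where it meets the TEAD core the motifs can share the letters TG. A match is a description of the letters and not evidence of binding.

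**Figure D1:**
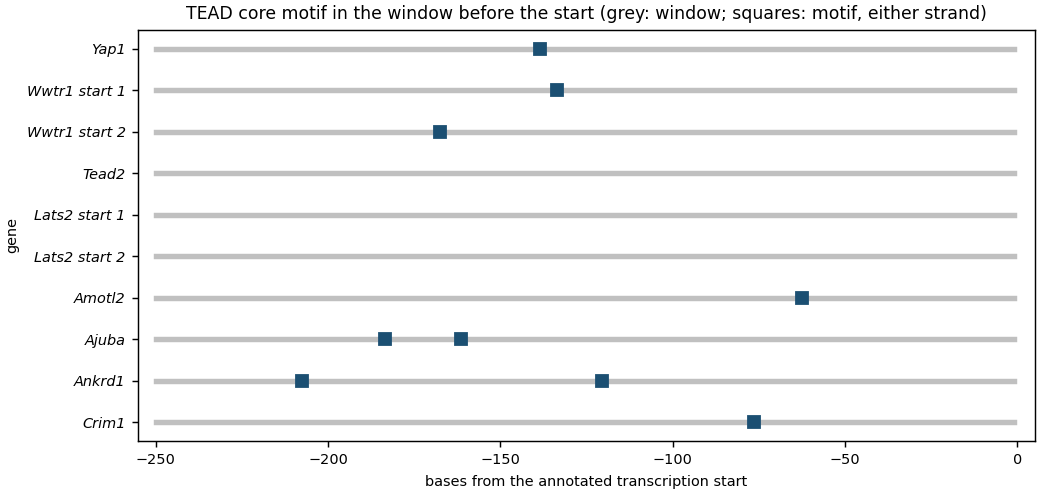
Positions of the TEAD core in the window before each annotated start. The x axis gives bases from the transcription start, each grey line is 1 promoter window of 250 bases, and squares mark a core on either strand. *Ajuba* and *Ankrd1* have 2 squares, and *Tead2* and *Lats2* have none.

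The scanner software flagged all 16 probes of the 10 genes as well above background in every line. Signals are intensities scaled so that the 75th percentile of every array is 400.0, and have no other unit. The error given with a signal is the scanner software's own estimate, 10% of the signal for bright spots and a larger share for dim ones, and it covers the spot and not the culture. A difference is called when it reaches 2-fold, which is 1 on the log2 scale. A gene with several probes is represented by the brightest, and signals were never compared between probes. Between 49.9% and 53.8% of probes were well above background on an array, no spot was saturated, and all arrays lay on 1 slide scanned in 1 run. In bulk RNA, fewer cells that express a gene and less RNA per cell cannot be told apart.

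Markers of cell types were read against the name of the line. Of 8 epithelial markers, 3 were well above background in Colon26 cells, 4 in LuM1 cells and 3 in NM11 cells. *Cdx2*, a transcription factor of intestinal epithelium, gave 442 in Colon26 cells, 228 in LuM1 cells and 170 in NM11 cells. The keratin genes *Krt20* and *Krt8* had opposite orders, with 650, 53.8 and 160 for *Krt20* and 28.9, 106 and 37.7 for *Krt8*. *Epcam* passed the flag only in LuM1 cells, at 27.6, and *Cdh1*, *Krt18*, *Krt19* and *Vil1* in no line. All 8 mesenchymal markers were well above background in all 3 lines, so these transcripts bear out an epithelial line only in part. Of 6 leukocyte markers, 3 passed the flag in Colon26 and NM11 cells and 4 in LuM1 cells, among them *Itgam* and *Cd14*, while the pan-leukocyte marker *Ptprc* and the macrophage marker *Adgre1* did so in none. *Cd14* gave 1151 in Colon26, 4117 in LuM1 and 1004 in NM11 cells. Of 4 endothelial markers, *Pecam1* passed in all lines, at 51.2 to 79.5, and *Cdh5*, *Kdr* and *Tek* in none. The summed signal of the epithelial list was 1152 in Colon26, 435 in LuM1 and 393 in NM11 cells, and that of the mesenchymal list 187462, 99542 and 211910. Single genes made most of the difference between Colon26 and LuM1 cells in these sums, *Krt20* in the first and the collagen gene *Col1a2*, at 59787, 48.9 and 86641 in Colon26, LuM1 and NM11 cells, in the second. Whether these differences bear on the pathway genes was not tested.

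LuM1 cells differed from the parental Colon26 cells in 5 of the 10 genes by at least 2-fold. *Ankrd1* was higher and *Tead2*, *Amotl2*, *Ajuba* and *Crim1* were lower. Among the 12249 named genes that passed this flag on every array, 9.27% were at least 2-fold higher and 10.0% at least 2-fold lower in this comparison. NM11 cells differed from Colon26 cells in 2 of the 10 genes. *Ankrd1* was 2-fold higher and *Crim1* was lower, where 6.48% of the 12249 genes were higher and 4.74% were lower. LuM1 cells differed from NM11 cells in 2 genes, *Amotl2* and *Ajuba*, which were both lower, where 6.87% of all genes were higher and 8.03% were lower. The median log2 ratio of the 10 genes was −0.52 for LuM1 over Colon26, −0.23 for NM11 over Colon26 and −0.48 for LuM1 over NM11, and that of the 12249 genes was −0.15, 0.00 and −0.16. With 10 genes and 1 array for each line, these counts describe the arrays and carry no test.

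**Figure D2:**
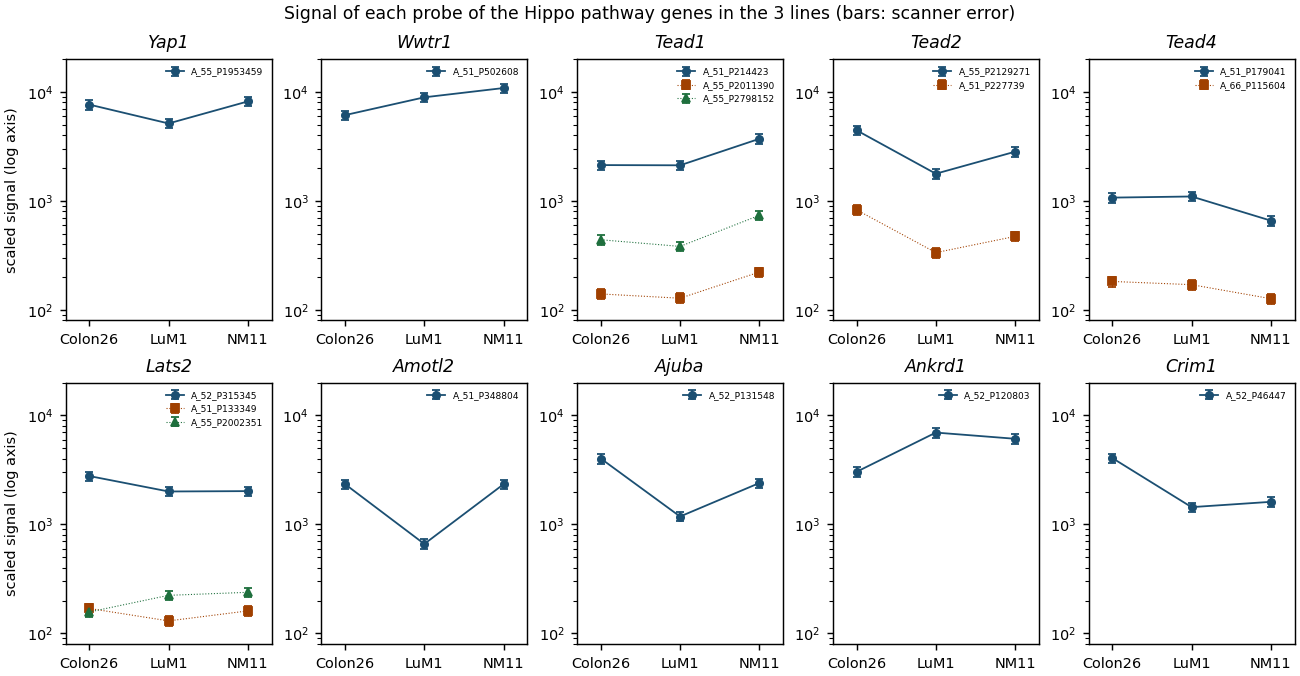
Scaled signal (log axis, no unit) of all 16 probes of the 10 genes in the 3 lines, with bars for the scanner error. Solid lines join the brightest probe of a gene and dotted lines its other probes. *Amotl2* dips in LuM1 cells, from 2341 in Colon26 and 2338 in NM11 cells to 662, while *Crim1* is high in Colon26 cells alone.

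*Yap1*, the coactivator that gives the pathway its output, gave a signal of 7644 ± 764 in Colon26, 5131 ± 513 in LuM1 and 8173 ± 817 in NM11 cells. LuM1 cells were the lowest, and Colon26 and NM11 cells lay within the scanner error of each other. The log2 ratio was −0.58 for LuM1 over Colon26 and −0.67 for LuM1 over NM11, neither of which reached 2-fold. The first shrank to −0.11 in the authors' processed values and the second to −0.04 under scaling to *Hprt*. Both of these lay within the scanner error of 0.20. *Wwtr1*, which encodes TAZ, gave 6122 ± 612 in Colon26, 8917 ± 892 in LuM1 and 10848 ± 1085 in NM11 cells. Here Colon26 cells were the lowest, with log2 ratios of 0.54 for LuM1 and 0.83 for NM11, and the order of LuM1 and NM11 turned under scaling to *Hprt*, under scaling to spike-in RNA, in quantile-normalized values and in the authors' processed values. The coactivators thus lay on opposite sides of their Colon26 signal in LuM1 cells, neither by 2-fold. The log2 ratio of *Wwtr1* minus that of *Yap1*, which does not depend on the constant each array is scaled by, was 1.12 for LuM1 over Colon26, with a scanner error of 0.29, and 0.73 for NM11 over Colon26.

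*Tead1* gave 2129 ± 213 in Colon26, 2119 ± 212 in LuM1 and 3708 ± 371 in NM11 cells. NM11 cells were the highest, and Colon26 and LuM1 cells did not differ beyond the scanner error. The ratio of NM11 over Colon26 was 0.80 on the log2 scale at this probe and 0.67 at the lowest of its 3 probes, and LuM1 over NM11 was −0.81.

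*Tead2*, which is best known from early embryos and neural tissue, gave 4439 ± 444 in Colon26, 1774 ± 177 in LuM1 and 2825 ± 283 in NM11 cells. The 3 lines fell into an order with Colon26 highest and LuM1 lowest, and neighbours in it differed by more than the scanner error. LuM1 cells were 2.50-fold lower than Colon26 cells, with log2 ratios of −1.32 and −1.30 at its 2 probes. The ratio of NM11 over Colon26 was −0.65 at the brighter probe and −0.81 at the other.

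*Tead4*, a TEAD gene needed for the first lineage choice of the mouse embryo, gave 1071 ± 107 in Colon26, 1096 ± 110 in LuM1 and 658 ± 66.0 in NM11 cells. NM11 cells were the lowest, and Colon26 and LuM1 cells lay together. NM11 over Colon26 was −0.70 on the log2 scale at this probe and −0.53 at the second, and LuM1 over NM11 was 0.74 and 0.43. *Tead3*, the remaining TEAD gene, gave 2786 ± 279, 1876 ± 188 and 2695 ± 270 in Colon26, LuM1 and NM11 cells, with LuM1 the lowest at a log2 ratio of −0.57 to Colon26. No TEAD gene other than *Tead2* reached 2-fold in any comparison. *Tead1* minus *Tead4* was 1.50 for NM11 over Colon26 and −0.04 for LuM1 over Colon26, and *Tead1* minus *Tead2* was 1.32 for LuM1 and 1.45 for NM11 over Colon26, each with a scanner error of 0.29.

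*Lats2*, the kinase that phosphorylates YAP and is itself a target, gave 2780 ± 278 in Colon26, 2006 ± 201 in LuM1 and 2022 ± 202 in NM11 cells. Colon26 cells were the highest at this probe, by 0.47 and 0.46 on the log2 scale, which is under 2-fold. Its 3 probes did not point the same way. The 2 assigned to the same RefSeq transcript gave −0.47 and −0.38 for LuM1 over Colon26, and the probe that differed is assigned to another. The dimmest probe in Colon26 cells gave 157 in Colon26, 223 in LuM1 and 238 in NM11 cells, a log2 ratio of 0.51 for LuM1 over Colon26, where the brightest gave −0.47. No direction is therefore given for *Lats2*. *Lats1*, the related kinase, gave 437 ± 44.1, 246 ± 25.1 and 322 ± 32.5 in Colon26, LuM1 and NM11 cells, or −0.83 for LuM1 over Colon26. Of the 117 spots around its probe, 18 were above background on no array but that of Colon26, against 1.89% of all spots, and the bearing of this on its ratio was not tested.

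The kinases at the head of the chain differed little. *Stk3*, which encodes MST2, gave 1392, 1381 and 1588 in Colon26, LuM1 and NM11 cells, and *Stk4*, which encodes MST1, gave 772, 658 and 597. Their log2 ratios lay between −0.37 and 0.19. Of 12 genes listed for the kinases and their adaptors other than *Lats2*, 2 were at least 2-fold higher and 0 lower in LuM1 than in Colon26 cells, beside 12.9% higher and 12.2% lower among all genes with a ratio or bound. The 2 were *Taok3* and *Map4k4*, both known as kinases that can act upstream of LATS and both named after their values were seen. *Map4k4* gave 4723 ± 472 in Colon26, 16068 ± 1607 in LuM1 and 11452 ± 1145 in NM11 cells, which put Colon26 cells lowest by 3.40-fold and 2.42-fold. *Taok3* gave 233, 783 and 282, and its second probe gave 44.8, 126 and 119, so its probes differ on whether NM11 cells are like LuM1 cells. The median of the 12 was 0.01, −0.02 and 0.13 for LuM1 over Colon26, NM11 over Colon26 and LuM1 over NM11.

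*Amotl2* encodes a member of the angiomotin family, junction proteins that hold YAP and TAZ in the cytoplasm, and it is also a target of YAP. It gave 2341 ± 234 in Colon26, 662 ± 66.3 in LuM1 and 2338 ± 234 in NM11 cells. LuM1 cells were the lowest, and Colon26 and NM11 cells gave nearly the same signal. The signal in LuM1 cells was 3.54-fold lower than in Colon26 cells and 3.53-fold lower than in NM11 cells, which placed the log2 ratios of −1.82 at percentiles 2.27 and 1.80 of the 12249 genes. It was at least 2-fold lower in LuM1 cells under all 11 alternatives tried at this threshold, between −1.82 and −1.36 against Colon26 and between −1.82 and −1.19 against NM11.

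The other angiomotins were lower in LuM1 cells as well. *Amot* gave 2044 ± 204 in Colon26, 241 ± 24.4 in LuM1 and 1828 ± 183 in NM11 cells, so that LuM1 cells were 8.48-fold lower than Colon26 and 7.58-fold lower than NM11 cells, or −3.08 and −2.92 on the log2 scale. As a mean over its probes these ratios were at or below −2.12 and −2.18, because a dim probe entered the mean as a bound. *Amotl1*, which was named after its values were seen, gave 500 ± 50.3, 204 ± 20.9 and 717 ± 71.8, a difference of 2.45-fold and 3.51-fold. A second *Amot* probe, of low signal, was well above background in Colon26 and NM11 cells and not in LuM1 cells, and the remaining probe was not well above background in any. All 3 genes of the family kept the sign of both LuM1 ratios under every alternative, and *Amotl1* alone fell short of 2-fold in 1 of them, at −0.83 against Colon26 in the authors' processed values.

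*Ajuba* encodes a LIM protein of cell junctions that binds LATS kinases and restrains them. It gave 4021 ± 402 in Colon26, 1182 ± 118 in LuM1 and 2397 ± 240 in NM11 cells. Colon26 cells were the highest and LuM1 cells the lowest, and all neighbours in this order were farther apart than the scanner error. LuM1 cells were 3.40-fold lower than Colon26 cells and 2.03-fold lower than NM11 cells, and NM11 over Colon26 stood at −0.75 on the log2 scale. The difference to NM11 cells stood close to the threshold and stayed at least 2-fold in 3 of 11 alternatives, whereas that to Colon26 cells did so in all 11. *Limd1*, a relative of *Ajuba* named after its values were seen, gave 2641 ± 264, 1392 ± 139 and 2795 ± 280, with LuM1 the lowest but 1.90-fold below Colon26. *Ajuba* minus *Limd1* was −0.84 for LuM1 and −0.83 for NM11 over Colon26, with a scanner error of 0.29.

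Genes that LuM1 cells had at least 2-fold below both Colon26 and NM11 cells made up 4.38% of the 12249 genes, and *Amotl2* and *Ajuba* were the 2 of the 10 that did so. Of the 29 further pathway genes, 24 could be compared with both lines, and 5 were lower in LuM1 cells than in both, where 4.74% of all genes with both ratios or bounds were. These were *Wwc2*, *Fat1*, *Rassf1*, *Amot* and *Amotl1*. All 5 kept their direction against both lines in all 11 alternatives, but only *Amot* stayed at least 2-fold lower in all. In the authors' processed values the log2 ratios to Colon26 were −0.97 for *Wwc2*, −0.77 for *Fat1* and −0.83 for *Amotl1*. Against NM11 cells *Wwc2* stayed at least 2-fold lower in 6 of 11 alternatives and *Rassf1* in 9. *Rassf1*, which encodes a scaffold of the MST kinases, gave 18583 ± 1858 in Colon26, 5255 ± 526 in LuM1 and 14238 ± 1424 in NM11 cells. *Fat1*, an atypical cadherin, gave 6291 ± 629, 2666 ± 267 and 9125 ± 913. *Wwc2*, a relative of KIBRA, gave 9284 ± 928, 3434 ± 343 and 7251 ± 725. All 3 were lowest in LuM1 cells and were named after their values were seen. Of the 115 spots around the probe of *Rassf1*, 9 were above background on the Colon26 array alone.

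The 12 upstream regulators and scaffolds other than *Amotl2* and *Ajuba* had a median log2 ratio at or below −1.15 for LuM1 over Colon26, a value set by the bound of *Fat4*, where all 12249 genes had −0.15. Of the 11 with a ratio or bound, 7 were at least 2-fold lower and 1 was higher, beside 12.2% lower and 12.9% higher among all genes with a ratio or bound. Against NM11 cells the median was −1.04, with 6 of 10 at least 2-fold lower and 0 higher, beside 9.41% and 10.6%. NM11 over Colon26 had a median of −0.16 with 1 of 11 higher and 1 lower, beside 8.66% and 7.56%. The counts depended on the processing. They ranged from 2 to 7 genes lower for LuM1 over Colon26 and from 3 to 6 for LuM1 over NM11. Below 0 stayed 9 or more of 11 and 7 or more of 10. Among all genes with a ratio or bound, 8000 of 14172 and 8375 of 14415 were below 0 in the main processing. With the probes of a gene averaged, 2 were at least 2-fold higher over Colon26 and 1 over NM11. Under normexp background correction, 1 was higher over NM11. *Dchs1*, named after its values were seen, did not reach 2-fold at its brightest probe. Its second probe gave 33.4 in Colon26, 441 in LuM1 and 11.6 in NM11 cells, the last not well above background. *Nf2*, the tumor suppressor merlin, did not reach 2-fold, with 10087 ± 1009 in Colon26, 6487 ± 649 in LuM1 and 8649 ± 865 in NM11 cells. *Frmd6*, named after its values were seen, was the 1 that was higher, with 1157 in Colon26, 2350 in LuM1 and 2824 in NM11 cells. *Fat4*, also named after its values were seen, passed the background flag only in Colon26 cells, at 43.9. Of the 109 spots around its probe, 7 were above background on the Colon26 array alone, and the bearing of this was not tested.

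**Figure D3:**
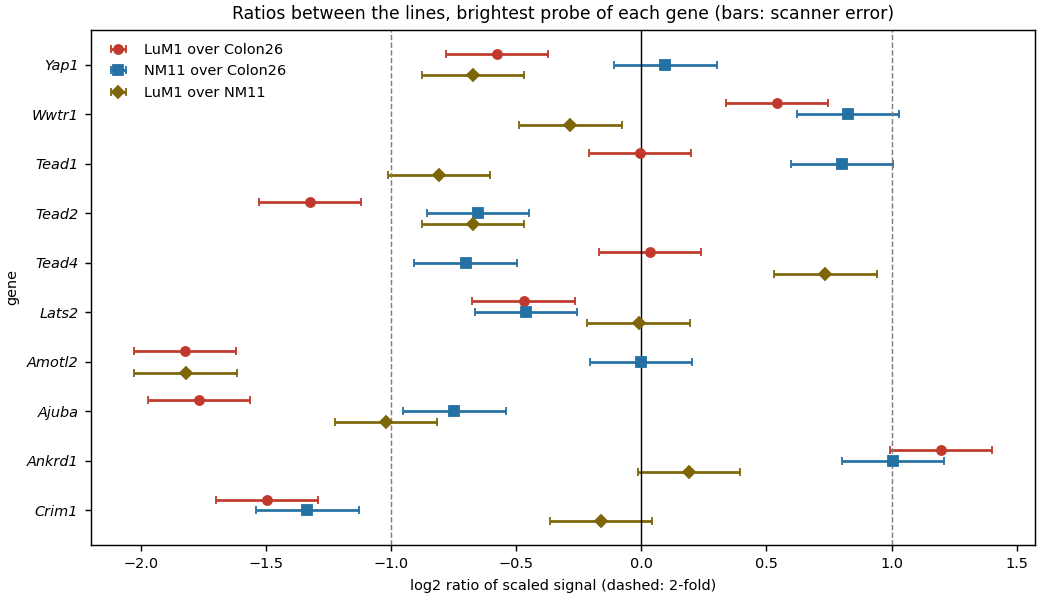
Log2 ratios of the 10 genes in the 3 comparisons at the brightest probe, with bars for the scanner error and dashed lines at 2-fold. *Amotl2* and *Ajuba* lie furthest to the left for LuM1 over Colon26, at −1.82 and −1.77, and *Ankrd1* lies furthest to the right, at 1.20.

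*Ankrd1*, which encodes an ankyrin repeat protein of the nucleus and the sarcomere and is a widely used readout of YAP and TAZ, gave 3041 ± 304 in Colon26, 6967 ± 697 in LuM1 and 6110 ± 611 in NM11 cells. Both sublines were above Colon26 cells, and they lay within the scanner error of each other. The difference was 2.29-fold for LuM1 and 2.01-fold for NM11, at percentiles 92.7 and 93.6. Genes at least 2-fold lower in Colon26 cells than in both sublines made up 3.90% of the 12249 genes. The ratio for NM11 stayed at or above 2-fold in 6 of 11 alternatives, with a range of 0.49 to 1.02 on the log2 scale, and that for LuM1 did so in all 11.

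*Crim1*, a transmembrane protein that binds bone morphogenetic proteins, gave 4063 ± 406 in Colon26, 1441 ± 144 in LuM1 and 1612 ± 161 in NM11 cells. Colon26 cells were the highest, and the sublines did not differ beyond the scanner error. It was 2.82-fold lower in LuM1 and 2.52-fold lower in NM11 cells, in a class that held 2.11% of the 12249 genes. Both ratios stayed past 2-fold in all 11 alternatives. The target genes *Ankrd1* and *Crim1* therefore lay on opposite sides of their Colon26 signal in both sublines. *Ankrd1* minus *Crim1* was 2.69 for LuM1 and 2.34 for NM11 over Colon26, and *Ankrd1* minus *Amotl2* was 3.02 and 1.01, each with a scanner error of 0.29.

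The order of the lines differed from gene to gene. LuM1 cells gave the lowest signal for 7 of the 10 genes, but *Tead1*, *Lats2* and *Crim1* were lowest there by less than the scanner error. The remaining 4 were *Yap1*, *Tead2*, *Amotl2* and *Ajuba*. By plain order, whatever the scanner error, the same 4 were lowest in LuM1 cells in the authors' processed values. There *Yap1* stood at −0.11 against Colon26, within the scanner error. Scaled to *Hprt*, *Yap1* and *Tead2* were both at −0.04 for LuM1 over NM11. The share of all genes lowest in LuM1 cells was not counted. Of the 12249 genes, 7293 were below 0 for LuM1 over Colon26 and 7460 for LuM1 over NM11. Beyond the scanner error, Colon26 cells were the lowest for *Wwtr1* and *Ankrd1*, and NM11 cells for *Tead4*. Counts of differences beyond the scanner error take *Lats2* at its brightest probe although its probes disagree. By them, 2 genes were higher and 6 lower in LuM1 than in Colon26 cells. In NM11 cells 3 were higher and 5 lower than in Colon26 cells, and in LuM1 cells 1 was higher and 6 lower than in NM11 cells. The share of all genes beyond the scanner error was not counted. Below 0 at any size were 6077 of the 12249 genes for NM11 over Colon26, beside the numbers for LuM1 given above. Of the 30 ratios, those just outside the threshold were *Wwtr1* at 0.83 for NM11 over Colon26 and *Tead1* at −0.81 for LuM1 over NM11, and those just inside were *Ankrd1* at 1.01 for NM11 over Colon26 and *Ajuba* at −1.02 for LuM1 over NM11. For LuM1 over NM11 the choice of scaling mattered most. Scaling to *Hprt*, the control gene of the study's RT-qPCR, moved every log2 ratio of this comparison up by 0.63, or 1.55-fold, which left *Amotl2* as the gene at least 2-fold lower and put *Tead4* at least 2-fold higher. Spots around the brightest probes of the 10 genes were above background on the Colon26 array alone in 0 to 5 of 112 to 118 cases.

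**Figure D4:**
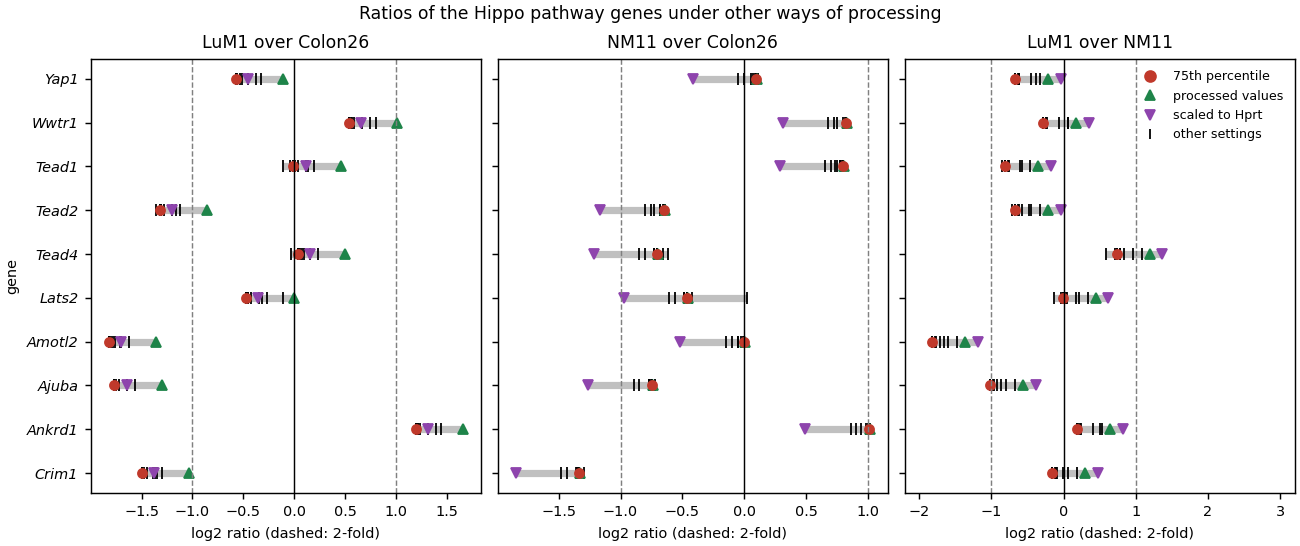
Log2 ratios of the 10 genes under the main scaling (red circles), in the authors' processed values (green triangles), scaled to *Hprt* (purple triangles) and under the other alternatives (black ticks), with grey bars for the range and dashed lines at 2-fold. *Amotl2*, *Ajuba* and *Crim1* stay to the left of −1 for LuM1 over Colon26, and *Ankrd1* stays to the right of 1.

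A list of 18 further genes known as targets of YAP and TAZ showed no shared direction. Of 17 with a ratio or bound, 2 were at least 2-fold higher and 5 lower in LuM1 than in Colon26 cells, with a median log2 ratio of −0.10, beside 12.9% higher and 12.2% lower among all genes with a ratio or bound. In NM11 over Colon26, 4 of 16 were higher and 3 lower, with a median of 0.22, beside 8.66% and 7.56%. In LuM1 over NM11, 1 of 17 was higher and 4 lower, with a median of −0.23, beside 10.6% and 9.41%. *Ccn1*, which encodes the matricellular protein CYR61, gave 6629 ± 663 in Colon26, 1598 ± 160 in LuM1 and 7276 ± 728 in NM11 cells. LuM1 cells were the lowest by 4.15-fold and 4.55-fold, and *Ankrd1* minus *Ccn1* was 3.25 for LuM1 over Colon26. Of 62 spots around its probe, 11 were above background on the Colon26 array alone, and the ratio to NM11 cells, which does not use that array, was as large. *Ccn2*, its relative CTGF, was well above background in LuM1 cells alone, at 37.1 ± 5.7. In the main processing this is at least 1.41-fold above Colon26 and at least 1.87-fold above NM11 cells. Under normexp background correction these limits fell, on the log2 scale, from 0.49 to 0.14 and from 0.90 to 0.41.

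*Gadd45b*, a stress-response gene, gave 2225 ± 223 in Colon26, 363 ± 36.6 in LuM1 and 5827 ± 583 in NM11 cells. *F3*, which encodes tissue factor, gave 496 ± 49.9, 130 ± 13.7 and 1961 ± 196. *Ccdc80*, which encodes a matrix protein, gave 492 ± 49.5, 39.4 ± 5.9 and 2148 ± 215. These 3 genes had NM11 cells highest and LuM1 cells lowest, with LuM1 16.0-fold, 15.1-fold and 54.5-fold below NM11 cells. The last of these depends on a dim LuM1 spot, and its log2 ratio of −5.77 became −4.34 under normexp background correction. With *Ccn1* they were the 4 of 16 target genes that LuM1 cells had at least 2-fold below both Colon26 and NM11 cells, beside 4.74% of all genes with both ratios or bounds.

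Other targets had other orders. *Rbms3*, an RNA-binding protein gene, gave 140 ± 15.2 in Colon26, 682 ± 68.3 in LuM1 and 865 ± 86.6 in NM11 cells, so that Colon26 cells were the lowest by 4.89-fold and 6.20-fold, as they were for *Ankrd1*. Its second probe gave similar log2 ratios, 2.32 and 2.84, and its remaining probe, of low signal, gave 0.61 and 1.55. *Foxf2*, a forkhead factor gene, passed the background flag only in Colon26 cells, at 178 ± 18.9, at least 8.98-fold above LuM1 and at least 8.97-fold above NM11 cells. Under normexp the log2 ratios to Colon26 were −2.02 and −1.40 instead of −3.17 and −3.16. *Nt5e*, which encodes the ectonucleotidase CD73, gave 208 ± 22.6, 469 ± 47.2 and 40.2 ± 6.2, with NM11 the lowest, but 28 of the 81 spots around its probe were above background on the Colon26 array alone. The ratio of LuM1 over NM11, which does not use the Colon26 array, was 11.7-fold, a log2 ratio of 3.55 that became 2.12 under normexp. Among the cofactors of TEAD, *Vgll4* and *Vgll3* were named after their values were seen. *Vgll4*, a TEAD repressor, gave 175 ± 18.5 in Colon26, 438 ± 44.0 in LuM1 and 192 ± 19.6 in NM11 cells. Of the 113 spots around its probe, 9 were above background on the Colon26 array alone. *Vgll3* was well above background in NM11 cells alone, at 71.5 ± 8.2. *Vgll1*, *Vgll2* and *Wtip* were not well above background in any line.

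**Figure D5:**
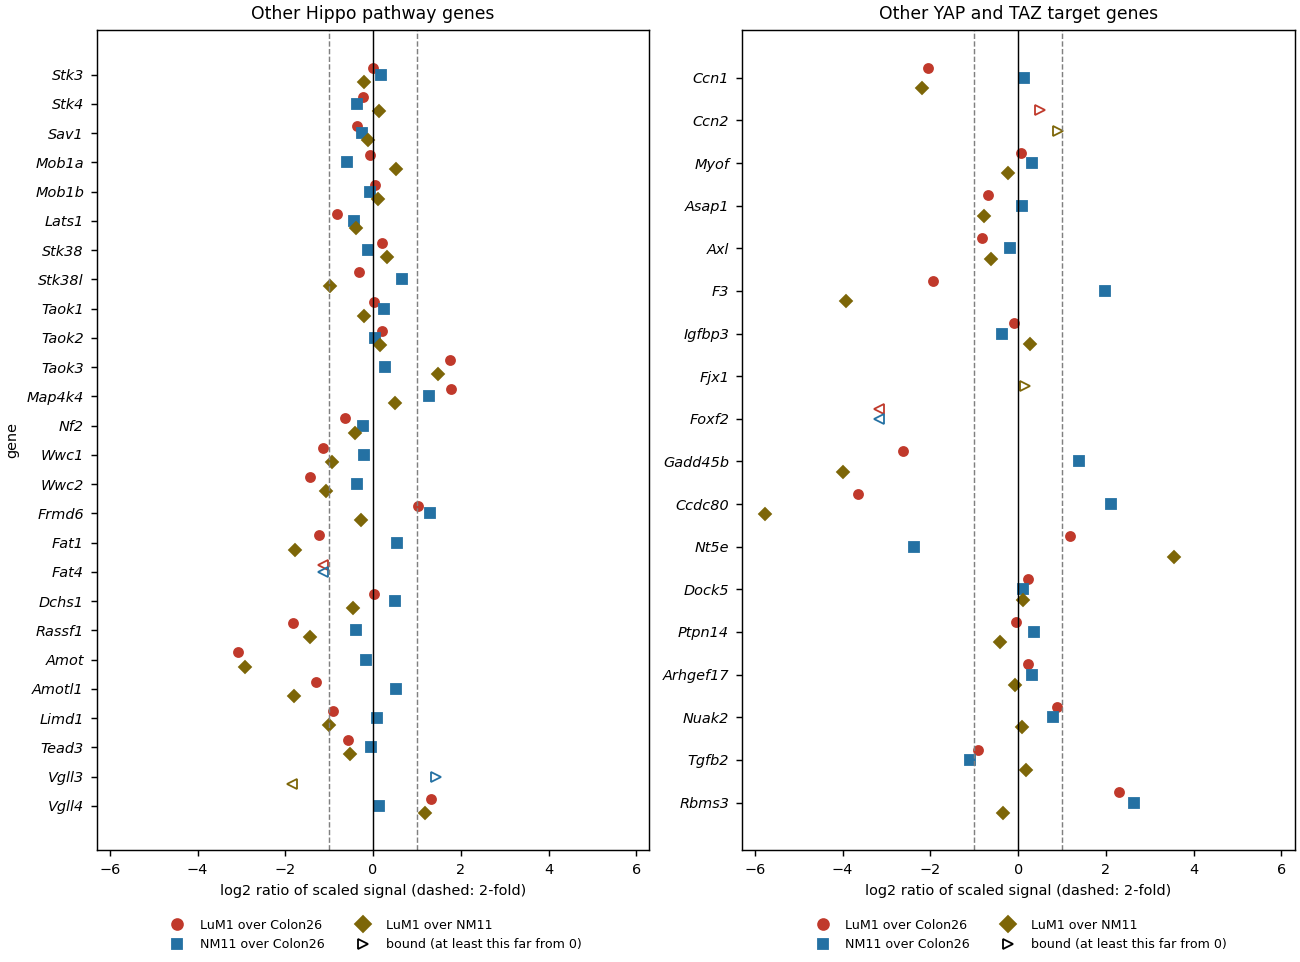
Log2 ratios of the further Hippo pathway genes (left) and YAP and TAZ target genes (right) in the 3 comparisons, with dashed lines at 2-fold and open triangles for bounds. *Amot*, *Rassf1*, *Amotl1* and *Fat1* lie left of −1 in both LuM1 comparisons, while the targets *Ccdc80* and *Rbms3* lie on opposite sides for LuM1 over Colon26, at −3.64 and 2.29.

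*Amotl2*, the gene with the widest span among the 10, was compared with all 12248 other genes by the Euclidean distance of their log2 ratios to Colon26. The nearest were *Rassf8* at 0.05, *Stx3* and *Pop1* at 0.09, and *Ccdc137* and *Snhg16* at 0.12. Over 3 arrays the distance rests on 2 ratios. *Rassf8* gave 150 in Colon26, 42.9 in LuM1 and 145 in NM11 cells, and *Pop1* gave 5739, 1727 and 5616. Among the 10 genes *Ajuba* was the nearest to *Amotl2*, at a distance of 0.75 and rank 424.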

How the data were processed

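RNA of the lines Colon26, LuM1 and NM11 was hybridised by the authors to 1-colour Agilent arrays, 1 array per line, and scanned spots were quantified with Feature Extraction 11.5.1.1. The intensity of each spot was used as deposited by the authors, after the software's background subtraction and without scaling between arrays, together with the deposited flags of 0 or 1 for outliers and for spots well above background. The authors' processed table of intensity values holds the same intensities multiplied by a constant for every array (0.654 in Colon26, 0.829 in LuM1 and 0.706 in NM11 cells) and served as an alternative.

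Control and outlier spots were left out, repeated probes were averaged, and signals were divided by the 75th percentile of their array, taken over probes, and set to a common level. Of 56605 probes, 32994 (58.3%) were named through RefSeq accessions. A probe below background on 1 side of a ratio entered as a bound. Repeated probes had a median SD of 0.035 to 0.040 (log2), and precision is limited by the number of arrays. The comparisons were LuM1 over Colon26, NM11 over Colon26 and LuM1 over NM11, with a threshold of 2-fold and no test. The 10 genes and the lists of 29 pathway and 18 target genes were chosen with earlier results of these data known. Named by a rule set beforehand were the 10 genes, the listed genes at least 4-fold apart in any comparison, *Tead3*, *Lats1*, *Stk3*, *Stk4*, *Nf2*, *Ccn1* and *Ccn2*, and the 5 genes nearest to the gene of widest span. All other listed genes in the text were named after their values were seen.

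As alternatives, arrays were left unscaled, quantile normalized, or scaled to *Hprt*, to E1A spike-in spots or to the median over measured probes. Background was also corrected by normexp (offset 50), dim probes were kept or filtered by a looser flag, the probes of a gene were averaged, the authors' values were taken, and the threshold was raised to 4-fold. Scaling to the 75th percentile over spots was added after seeing the data. Python 3.11.15 with numpy 2.4.6, pandas 2.3.3 and matplotlib 3.10.9 and R 4.3.3 with limma 3.58.1 were used, and the calls were tested on simulated data.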

Additional observations from a re-analysis of the deposited data

How the results depend on the processing

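With 1 array per line, no library could be left out. No paired analysis was possible because each line has a single array. Of the 30 ratios of the 10 genes, 9 reached 2-fold. All 9 kept their direction in all 11 alternatives at this threshold, and 6 of them stayed at least 2-fold in all. The 3 that did not were *Ankrd1* for NM11 over Colon26, *Ajuba* for LuM1 over NM11, and *Tead2* for LuM1 over Colon26, which fell to −0.86 in the authors' processed values. Over all 30 ratios, 22 kept their sign throughout.

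For NM11 over Colon26, the count of genes at least 2-fold higher went from 1 to 0 without scaling, with scaling to *Hprt*, to the E1A spots or to the 75th percentile of spots, and with quantile normalization. The count at least 2-fold lower went from 1 to 4 with scaling to *Hprt*. For LuM1 over NM11, the count lower went from 2 to 1 without scaling, with scaling to *Hprt*, to the median of measured probes, to the E1A spots or to the 75th percentile of spots, with quantile normalization, with normexp, and in the authors' values. The count higher there went from 0 to 1 with scaling to *Hprt*, with the E1A spots and in the authors' values. For LuM1 over Colon26, the count higher went from 1 to 2 in the authors' values, through *Wwtr1* at 1.01. At a 4-fold threshold every count was 0. The authors' values moved the median of all genes up by 0.46 for LuM1 over either line, and *Hprt* moved it by −0.51 for NM11 over Colon26 and by 0.63 for LuM1 over NM11, while the E1A spots moved it by 0.20, −0.15 and 0.35 for LuM1 over Colon26, NM11 over Colon26 and LuM1 over NM11. Without scaling it moved by 0.12, −0.10 and 0.22, and quantile normalization moved it by 0.12 for LuM1 over NM11. The size of a shift depends on the scaling chosen, and which scaling is closest to the RNA of the cells was not tested. Contrasts between genes within a comparison are free of the shifts from a constant per array, but not of quantile normalization or normexp. Probes of low signal, such as those of *Ccn2* and *Fat4*, gave bounds or values near the background of 19.8 to 26.4.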
